A study of Spirodela polyrhiza with 4 samples.

Results

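The H3K9me2 peaks described here lie near the ends of the 20 chromosomes of *Spirodela polyrhiza* line 9509. They were chosen by position in the list of broad peaks: a peak belongs to the start side if its midpoint is within 250 kb of position 1, and to the end side if its midpoint is within 250 kb of the end of the last peak of the chromosome. Of the 5726 peaks, 426 (7.44%) met this rule, with 149 on the start side and 277 on the end side, and 5300 peaks made up the rest. The 40 end regions together span 10 Mb, which is 7.25% of the 138 Mb from position 1 to the last peaks, and their peaks hold 8.97% of the total peak length. The rule used the positions of the peaks, so their number and coverage near the ends are a description. Fold enrichment and length were not used by the rule.

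Dimethylation of lysine 9 on histone H3 (H3K9me2) marks silenced, repeat-rich chromatin in plants, where it sustains CHG methylation through CMT3 in a feedback loop. In many angiosperms it is densest around the centromeres. Chromosome ends carry telomeres, short tandem repeats that cap the DNA, and the neighboring subtelomeres often hold further repeats and recently duplicated sequence. In *A. thaliana* and other species, parts of these regions are also packed as heterochromatin.

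The study profiled DNA methylation and small RNAs in lines 7498 and 9509 and H3K9me2 by ChIP-seq. The peaks come from 1 ChIP-seq library of line 9509, made from crosslinked whole plantlets of a sterile, clonally grown culture, with a gDNA input of the same line named in the labels. No treatment, transgene or second genotype enters these values. A single library gives neither a replicate error nor a test between samples, so all SDs are over chromosomes and differences carry no p-value. Fold enrichment is the ratio that MACS2 gave for a peak over its estimated background, and the sources used here do not say whether that background was the input. The list holds no read counts, so the depth behind a peak is unknown. Reads that mapped to several places were discarded before peak calling, so H3K9me2 over near-identical repeats, which chromosome ends can carry, may be missing. No genome sequence was used here, and the sequences of the peaks are not shown. The end of the last peak is a lower limit of the chromosome length, and a peak therefore lies at distance 0 on every end side by construction, which is not so on the start side.

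Most chromosome ends carried H3K9me2 in the outermost 25 kb and little behind it, while 5 ends were covered far into the 250 kb. In the outermost 25 kb, peaks covered 37.3% of the start side (SD 29.7, n = 20 chromosomes) and 46.1% of the end side (SD 32.1, n = 20), against 9.80% (SD 1.80, n = 20) of the sequence more than 250 kb from both ends. Most of this was the single outermost peak: with the first and last peak of each chromosome left out, the same 25 kb were covered to 9.18% on the start side and 17.2% on the end side. With all peaks, the outermost stretch was more covered than the rest of its own chromosome at 30 of the 40 ends, 15 on each side. On the end side this is partly built in, since each stretch begins at a peak. Stretches of 25 kb begun at interior peaks with no neighbor within 10 kb on their outer side had a median of 17.7%. From 25 to 250 kb the start side was covered to 5.58% (SD 12.7) and the end side to 12.1% (SD 17.7). Here the median end was covered to 2.56%, and at 32 of 40 ends the value was below the rest of the chromosome, 19 on the start side and 13 on the end side. Interior stretches of 225 kb had a median of 6.28%, below their mean of 9.64%, so a typical one also lies below the rest. Set against the median of such stretches on its own chromosome, the value was below at 28 of 40 ends. These were 17 on the start side and 11 on the end side. Over the whole 250 kb the start side reached 8.75% (SD 13.1) and the end side 15.5% (SD 16.2), so the means over 250 kb differed from the rest by less than their SD. Chromosomes 8, 13, 15, 19 and 20 hold the 5 most covered ends and were picked after their values were seen. Leaving them out therefore lowers the means by choice. Without them the end side had 8.46% and the start side 6.44%, both below the 10.2% of the rest. Over all 20 chromosomes the median was 10.1% on the end side and 5.48% on the start side, against 6.40% for interior stretches of 250 kb.

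**Figure D1:**
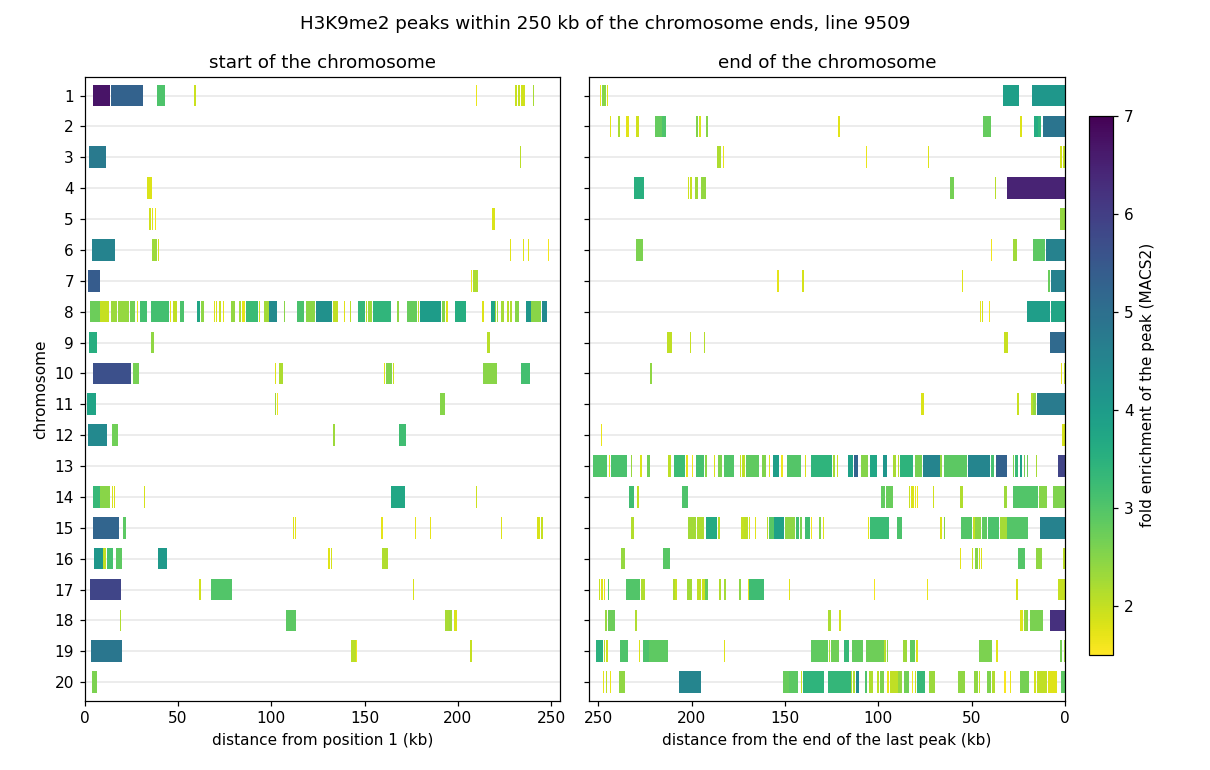
Each bar is 1 H3K9me2 peak within 250 kb of the start (left) or of the last peak (right) of a chromosome, drawn to scale by distance in kb, 1 row per chromosome, with the color giving its fold enrichment. Dark bars, the strongest peaks, lie mostly at the outer edge, and the start of chromosome 8 and the ends of chromosomes 13, 15, 19 and 20 hold the most peaks, 201 in all.

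The sequence covered dropped over the first 75 kb on both sides, and from there to 250 kb it stayed below the rest of the chromosomes in every step on the start side only. On the start side the mean coverage was 37.3% from 0 to 25 kb, 9.58% from 25 to 50 kb and 3.71% from 50 to 75 kb. In the 7 further steps it lay between 3.85% and 7.32%. The number of chromosomes without any peak in a step went from 4 in the outermost one to 11 in the next and 17 between 50 and 100 kb. On the end side the mean was 46.1%, then 18.5% and 8.75%, and from 75 to 250 kb it varied between 8.19% and 14.8%, at or above 10.2% in 6 of 7 steps. The median chromosome had no coverage in any start-side step beyond 25 kb, and on the end side none from 75 to 200 kb. Interior windows of 25 kb also had a median coverage of 0, and 55.5% of them held no peak. An empty median step is therefore not particular to the ends. Without chromosomes 8, 13, 15, 19 and 20, end-side coverage was 44.5% in the outermost step, 8.82% in the next and between 0.77% and 2.93% from 50 to 175 kb. It then reached 4.85%, 6.15% and 11.2% (SD 13.5) in the 3 steps up to 250 kb. Beyond the limit it was lower again on these 15 chromosomes, with 4.64% from 250 to 275 kb and 7.88% from 275 to 300 kb.

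**Figure D2:**
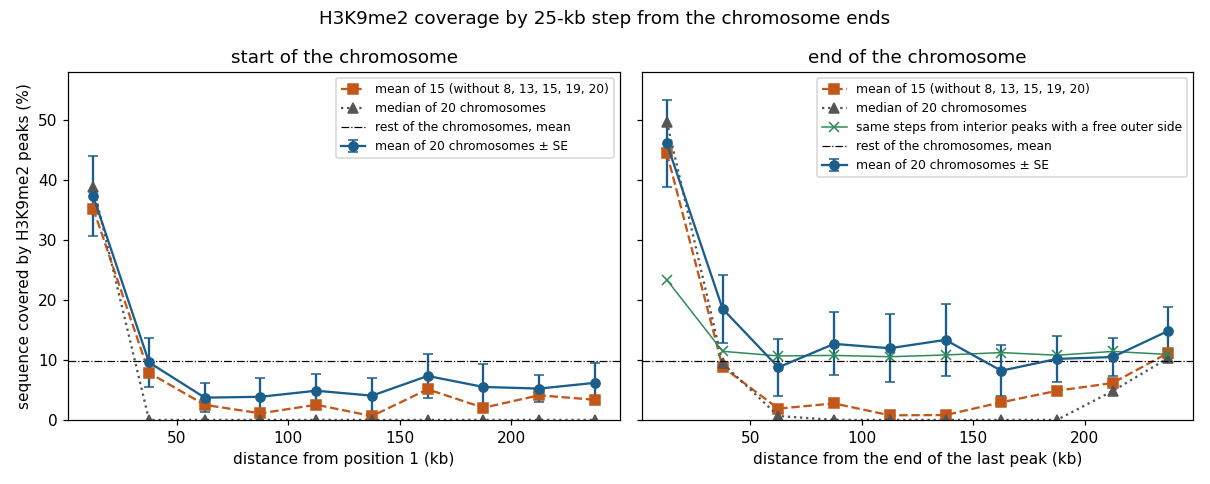
Percent of sequence covered by H3K9me2 peaks (y axis) in steps of 25 kb from position 1 (left) and from the end of the last peak (right), as the mean of 20 chromosomes with its SE over chromosomes, the mean of 15 chromosomes, the median, and the mean of 9.80% on the rest of the chromosomes. On both sides the outermost step stands above the others, and the green line shows the same steps counted inward from interior peaks with no neighbor within 10 kb on their outer side.

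Counting from a peak raises the outermost step, since that step then always contains the peak. The same steps were therefore counted from interior peaks whose outer side was free of peaks for more than 10 kb, in both directions, which gave 3187 starting points. From these, the outermost 25 kb were covered to 23.3% (SD 20.3) and the next step to 11.4%, with 10.5% to 11.4% beyond. The end side had 46.1% and 18.5% in these 2 steps. The start side, counted from the start of the first peak in place of position 1, had 41.8% (SD 30.5) and 8.29%. Interior 25-kb windows give another comparison: among the 5107 of them, 55.5% had no peak and 5.15% were covered to at least 50%. Of the outermost 25-kb windows, 18 of 40 (45.0%) were covered to at least 50%, 8 on the start side and 10 on the end side. The stretch from 25 to 250 kb was thinner than the typical interior on the start side, while the end side was mixed. The 562 interior stretches of 225 kb had a median coverage of 6.28% and a mean of 9.64%, and 17 of 20 start sides were below the median of such stretches on their own chromosome. On the end side 11 were below and 9 above, with a mean of 12.1%.

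The 40 ends differed widely from each other, and the 5 most covered were set apart after their values were seen. They were the end of chromosome 13 with 61.5% of 250 kb covered, the start of chromosome 8 with 60.4%, and the ends of chromosomes 20, 15 and 19 with 42.2%, 41.6% and 29.2%. These 5 ends held 201 of the 426 peaks (47.2%). The next was the end of chromosome 4 with 18.0%. The other 35 ends had a mean of 7.15% (SD 5.42), with 40.3% (SD 30.8) in the outermost 25 kb and 3.46% (SD 3.64) behind it. On the start side the middle of the order was taken by chromosomes 7 and 6 with 4.20% and 6.75%, and the starts of chromosomes 2 and 13 had no peak at all in 250 kb. On the end side the middle values were 9.19% on chromosome 6 and 11.1% on chromosome 18, and the lowest was 0.819% on chromosome 10. Chromosome 13 combined an empty start with the most covered end. Across chromosomes the coverage of the start and end regions was not positively related (Pearson r = −0.19, Spearman rho = −0.20, n = 20 chromosomes of 1 library).

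**Figure D3:**
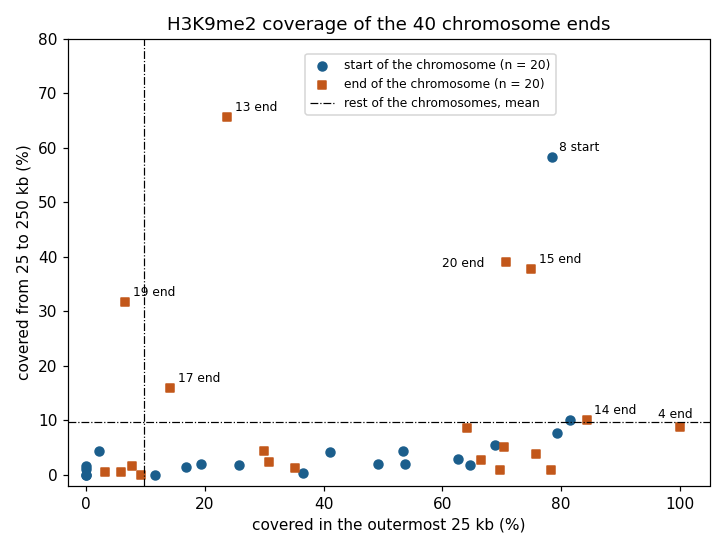
Each point is 1 of the 40 chromosome ends, with the percent covered by H3K9me2 peaks in the outermost 25 kb on the x axis and from 25 to 250 kb on the y axis, and lines at the mean of the rest of the chromosomes, 9.80%. Most ends lie low on the y axis whatever their outermost coverage, and the 5 most covered ends stand above 30% on the y axis.

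The 5 most covered ends were chosen by the positions of these same peaks, so close spacing there is partly built in. Their peaks had a median distance of 543 bp to the nearest peak, against 1361 bp at the other 35 ends and 799 bp in the rest of the list. A neighbor lay within 1000 bp for 68.2% of them, for 46.2% at the other 35 ends and for 56.2% of all peaks in the list. Their median length was 1863 bp and their median fold enrichment 2.42 (quartiles 2.00 and 3.02). On chromosome 8 an unbroken series of 73 peaks with gaps of at most 10 kb ran from 2833 to 318597, beyond the 250 kb, and was 62.5% covered. Its first peak reached a fold enrichment of only 2.74. At the end of chromosome 13, by contrast, the last peak had a fold enrichment of 5.89, and 5 further peaks of at least 4-fold followed with midpoints between 34016 and 111820 bp from the end. The most enriched of these ran from 6202227 to 6204216 with 5.30. The end of chromosome 19 was covered to only 6.63% in the outermost 25 kb but to 31.7% behind it. On chromosome 20 the peaks from 3964646 onward had a higher −log10 q than other peaks of like fold enrichment. The one from 3973103 to 3977822 had 2.65 and 27.9, while one at the end of chromosome 19, from 3953606 to 3954925, had 2.65 and 6.93. These chromosome 20 peaks include all those in its outermost 25 kb, which were covered to 70.7%. The reason for the difference was not tested.

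At the other ends the outermost peaks formed a terminal chain, here the outermost peak and those following it with gaps of at most 10 kb. In the 33 of these 35 regions that held peaks, this chain had a median of 2 peaks and 11996 bp (quartiles 3534 and 23829). The median share of a chain that was covered was 89.8%, close to the 84.1% of interior chains. A chain of 1 peak is fully covered by construction, which held for 13 of the 33 and 639 of the 1658 interior ones. Interior chains, 1658 in number and built the same way, also had a median of 2 peaks but extended over 5486 bp (quartiles 1646 and 13644). The longest of the 33 were 38359 bp at the start of chromosome 1, with 3 peaks, and 37482 bp at the end of chromosome 4, with 2 peaks. The fold enrichment of the terminal chains, weighted by peak length, had a median of 3.88 against 2.25 for the interior chains, and it was at least 4 in 15 of 33 (45.5%) against 28 of 1658 (1.69%). Behind the 33 chains, the peak-free gap had a median of 70484 bp (quartiles 20067 and 123125), and behind interior chains 43555 bp (quartiles 21765 and 80420), so the quartile ranges overlapped. The most covered ends were left out here, while interior chains were not chosen by coverage, which favors longer gaps at the ends. Over all 40 ends the median gap was 45309 bp, with 80578 bp on the start side and 22598 bp on the end side. The longest gaps followed the start of chromosome 4, with 387481 bp, and the end of chromosome 5, with 304594 bp.

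Enrichment was highest in the outermost peaks and fell to the level of the rest from the next peak on. The 38 first and last peaks within the regions had a median fold enrichment of 4.08 (quartiles 2.43 and 4.88), and those at places 2, 3 and 4 counted inward had 2.16, 2.07 and 1.94, beside the median of 2.06 in the rest. A fold enrichment of at least 4 was reached by 20 of the 38 (52.6%, exact 95% binomial interval 35.8 to 69.0, counting error only), against 2.44% of all peaks in the list. At least 3-fold were 24 of 38 (63.2%), against 14.8% of all peaks. Among all peaks near the ends, 33 (7.75%, interval 5.39 to 10.7) were at least 4-fold. Of the 13 that were not outermost, 11 lay at the 5 most covered ends. The remaining 2 were the second peak of chromosome 1, from 13883 to 31379 with 5.28, and a peak at the start of chromosome 16 from 39120 to 44059 with 4.04. The 38 outermost peaks had a median −log10 q of 21.3, against 3.27 in the rest.

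The 10 most enriched peaks near the ends were shared by chromosomes 1, 4, 7, 10, 13, 17 and 18. The highest was the first peak of chromosome 1 from 4669 to 13393, with 6.70. It was followed by the last peak of chromosome 4 from 9503193 to 9533977 with 6.47 and that of chromosome 18 from 5304606 to 5312448 with 6.24. The outermost peak at the end of chromosome 13 spanned 6311185 to 6315042 and had 5.89. At the start of chromosome 17 the outermost peak, spanning 2603 to 19550, had 5.87. These were joined by the first peaks of chromosome 10, from 4552 to 24910 with 5.66, and of chromosome 7, from 1731 to 8180 with 5.43. The other three were inner peaks: those of chromosomes 13 and 1 given above with 5.30 and 5.28, and a peak at the end of chromosome 13 from 6278207 to 6283844 with 5.28. Of the 23 peaks of at least 5-fold in the whole list, 12 lay near the ends and 9 were outermost.

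**Figure D4:**
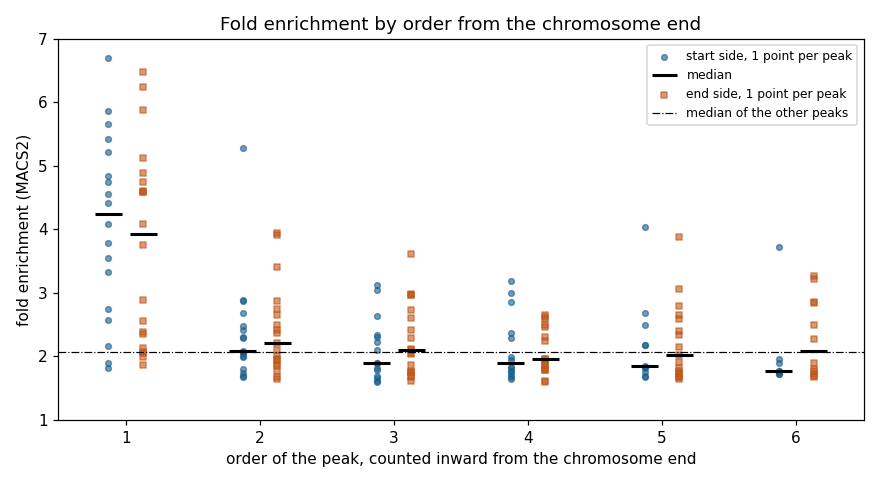
Fold enrichment (y axis) of each peak near a chromosome end against its order counted inward from the end (x axis), for start and end sides, with medians as black bars and a line at 2.06, the median of the peaks away from the ends. The outermost peaks have medians of 4.25 on the start side and 3.92 on the end side, and from the second peak on the medians lie near the line.

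On the start side, where distance is counted from the assembly's position 1, the enrichment of the first peak went with its place. On 15 chromosomes the first peak began between 1308 and 4950 bp. These 15 had a median fold enrichment of 4.55 (2.58 to 6.70) and a median length of 8725 bp (2899 to 20359), and 10 of them were at least 4-fold. On the other 5 chromosomes the first peak began farther in, at 18910 bp on chromosome 18, 33251 bp on chromosome 4, 34321 bp on chromosome 5, 328765 bp on chromosome 13 and 379312 bp on chromosome 2. These had 2.16, 1.82, 1.90, 1.89 and 1.75, with lengths of 377 to 1698 bp. The ranges of the 15 and the 5 did not overlap in fold enrichment or in length. The lowest of the 15 were chromosome 20 with 2.58 and chromosome 8 with 2.74, and the middle was chromosome 6, from 3748 to 16034, with 4.55. The split at 5 kb was made after the values were seen, and the last 2 of the 5 lie outside the 250 kb.

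On the end side the fold enrichments of the last peaks ran from 1.86 to 6.47 without a break at 4. The 10 of at least 4-fold had a median length of 11025 bp (3858 to 30785). The other 10 had fold enrichments of 1.86 to 3.76 and a median length of 1793 bp (337 to 7311). The highest was on chromosome 4 with 6.47, the middle ones were those of chromosome 1 with 4.09, from 11539353 to 11556753, and chromosome 8 with 3.76, from 8470398 to 8477708. The lowest was that of chromosome 12, from 5691627 to 5693096, with 1.86. How far the sequence goes on beyond a last peak was not measured here, so a weak last peak can also be one that does not lie at the end of its chromosome. Outermost peaks of at least 4-fold were at both ends of 4 chromosomes (1, 6, 7 and 15), at 1 end of 12 and at neither end of 4 (5, 8, 14 and 20). Over the 18 chromosomes with both peaks in the regions, the fold enrichments of the first and last peak were not positively related (Pearson r = −0.32, Spearman rho = −0.38).

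Longer peaks were more enriched throughout the list, and the outermost peaks had higher medians than others of the same length class from 2 kb upward. Among peaks of 10 kb or more, the 12 outermost had a median fold enrichment of 4.79 (4.09 to 6.47), all at least 4-fold. The 143 in the rest had 3.22 (quartiles 2.87 and 3.83), with 25 of at least 4-fold, and the 12 inner peaks near the ends had 3.43. From 5 to 10 kb the medians were 4.75 for 9 outermost peaks and 3.05 for 535 in the rest, and from 2 to 5 kb 3.33 for 9 and 2.58 for 1208. From 2 to 5 kb the quartiles overlapped, with 2.58 to 3.79 against 2.24 to 3.01. Within these classes the outermost peaks were also longer than the rest. Their median lengths were 3624 against 3082 bp, 7472 against 6614 bp and 14463 against 12560 bp, from the shorter to the longer class. Under 1 kb, 5 outermost peaks had 2.13 and the 2342 in the rest 1.81, and from 1 to 2 kb, 3 outermost peaks had 1.86 and the 1072 in the rest 2.09. The inner peaks near the ends were close to the rest, with medians of 1.84, 2.16, 2.63, 3.01 and 3.43 from the shortest to the longest class. Length and fold enrichment were related to a like degree among the 38 outermost peaks (Spearman rho = 0.79) and among the rest (0.77, n = 5300 peaks of 1 library). Long peaks were frequent at the ends: 12 of 38 outermost peaks (31.6%) measured at least 10000 bp, and 12 of 388 inner ones (3.09%), against 2.92% of all peaks.

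**Figure D5:**
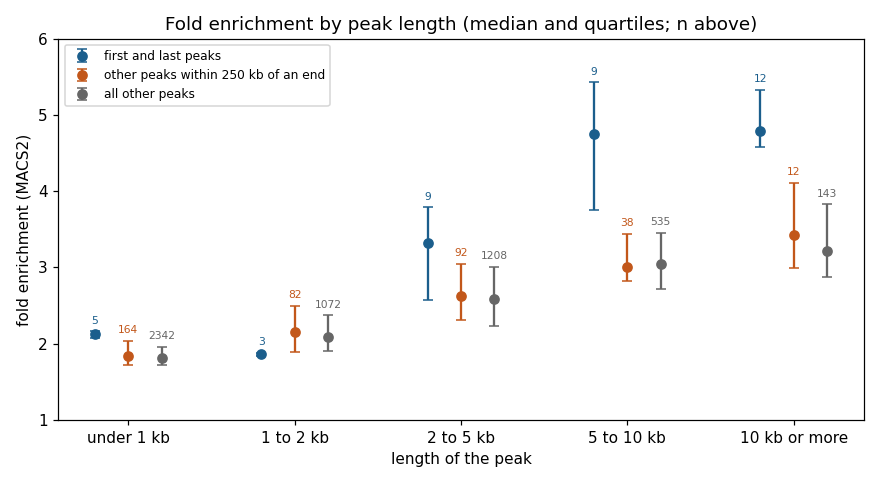
Median fold enrichment with quartiles (y axis) by class of peak length (x axis) for first and last peaks of the chromosomes, the other peaks within 250 kb of an end, and all other peaks, with the number of peaks above each point. From 2 kb upward the outermost peaks lie above both other groups, and the inner peaks near the ends lie close to the rest.

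Of the 5 longest peaks near the ends, 4 were outermost. The longest was the last peak of chromosome 4 with 30785 bp, and the first peak of chromosome 10 followed with 20359 bp. The second peak of chromosome 1 measured 17497 bp and the last of the same chromosome 17401 bp. The fifth was the first peak of chromosome 17 with 16948 bp.

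Among all 426 peaks near the ends, the medians were close to those of the rest, while very strong and long peaks were more frequent. At least 4-fold were 7.75% of them against 2.02% of the rest (interval 1.66 to 2.43), and at least 10000 bp long were 5.63% against 2.70%. Without the outermost peaks the share of at least 4-fold was 3.35% (interval 1.80 to 5.66). Their median fold enrichment was 2.23 (quartiles 1.85 and 2.87) against 2.06 (1.81 and 2.61), and their median length 1432 bp (599 and 3585) against 1200 bp (564 and 2985). The difference in length turned to −85.5 bp among peaks with q under 1e-05 and to −1 bp without chromosomes 8, 13, 15, 19 and 20. At least 2-fold were 63.1% of them, with 55.7% of all peaks in the list. Within chromosomes, the median fold enrichment near the ends was above that of the other peaks on 14 of 20 chromosomes, by 0.09 on average (SD 0.21), and the median length was also above on 14, by 233 bp (SD 445). Both differences were smaller than their spread between chromosomes. The 388 inner peaks had a median fold enrichment of 2.16. At the 35 less covered ends, the 61 peaks in the outermost 25 kb had 2.88 and a median length of 3624 bp. The 164 peaks behind them had 1.94 and 960 bp, and 1 of these (0.61%, interval 0.0154 to 3.35) was at least 4-fold. The most covered ends were left out here, which favors shorter and weaker peaks. With those ends included, the 347 peaks beyond 25 kb had a median fold enrichment of 2.15 and a median length of 1271 bp. Both medians lay slightly above those of the rest. At least 4-fold were 3.46% of these 347 peaks (interval 1.80 to 5.96). Over all 426 peaks, fold enrichment was weakly related to distance from the end (Spearman rho = −0.21).

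The end side held most of the 5 most covered ends, and its median coverage of the 250 kb was also higher, with 10.1% against 5.48% on the start side. Without chromosomes 8, 13, 15, 19 and 20 the means were 8.46% and 6.44%. The end side held more peaks on 13 of 20 chromosomes and was more covered on 13, by 6.75 percentage points on average (SD 22.7). In the outermost 25 kb the end side was more covered on 12 chromosomes, by 8.81 points (SD 47.9), where the edge is set at a peak on the end side only. The median fold enrichment was 2.17 for the 149 start-side peaks and 2.25 for the 277 end-side peaks, with median lengths of 1573 and 1401 bp. The outermost peaks had 4.25 (quartiles 2.89 and 5.12, n = 18) on the start side and 3.92 (2.30 and 4.78, n = 20) on the end side, and 10 on each side were at least 4-fold. On the 18 chromosomes with both, the last peak was stronger on 8 and the first on 10, with a mean difference of −0.49 (SD 2.41, last minus first). None of the 3 mean differences within chromosomes exceeded its SD.

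The limit of 250 kb cuts through covered stretches on some chromosomes. On the start side the last peak inside was on chromosome 6 from 248488 to 248785 with a fold enrichment of 1.59, and the next inside, on chromosome 8 from 245209 to 247985, had 4.41. The peak just outside, also on chromosome 8, ran from 249209 to 253683 and had 3.83. On the end side the last inside was on chromosome 17 from 4150611 to 4151147 with 1.97, and the first outside on chromosome 2 from 7919848 to 7920753 with 2.02.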

How the data were processed

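H3K9me2 ChIP-seq was made from whole plantlets of line 9509. The authors used Trimmomatic for adapters and low-quality bases, bowtie1 for mapping (at most 2 mismatches, reads with several best places dropped), SAMtools for sorting, Picard against duplicates, bedtools for format conversion, and MACS2 for broad peaks from every read that remained. The build of the genome was not named in the labels or methods read here. The deposited list gives for each peak a position, a fold enrichment (a ratio from MACS2), −log10 p and −log10 q (lowest 1.03) and a score (−log10 q times 10, truncated), which was not used.

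Positions were counted from 1. Coverage was the number of bases in peaks over the bases of a region, averaged over 20 chromosomes. Steps of 25 kb ran from position 1 and from the end of the last peak. Chains joined peaks across gaps of up to 10 kb. Shares have exact (Clopper-Pearson) 95% intervals. With 1 library no test was run. The coverage and membership code was checked base by base on constructed chromosomes. Members, lists and comparisons were chosen with earlier results of these data known. Regions named are the 10 most enriched and 5 longest peaks, first and last peaks and regions with the highest, middle and lowest values, and peaks at the limit. Others were picked with their values in view. The alternatives tried were stricter lists (q under 0.01, q under 1e-05, at least 1000 bp), peaks joined across 1000 bp, distances of 100 and 500 kb, steps of 10 and 50 kb, start regions counted from the first peak, and leaving out the outermost peaks or chromosomes 8, 13, 15, 19 and 20. The other 3 samples of the series were not analysed here. Python 3.11.15, NumPy 2.4.6, pandas 2.3.3, SciPy 1.17.1 and Matplotlib 3.10.9 were used.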

Additional observations from a re-analysis of the deposited data

How the results depend on the processing

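Of 90 values under the alternatives, 79 moved by less than the spread over chromosomes (shares: the binomial interval, counts: 1.5 times), and 11 by more. The 79 include large falls in the coverage of the outermost 25 kb when the first and last peaks were left out. It was then 9.18% in place of 37.3% on the start side and 17.2% in place of 46.1% on the end side. The number of peaks near the ends was 188 with q under 1e-05, 257 with at least 1000 bp, 274 with joined peaks, 197 within 100 kb, 792 within 500 kb and 203 without chromosomes 8, 13, 15, 19 and 20. The rest of the chromosomes was covered to 6.87% with q under 1e-05. The share of at least 4-fold was 17.6% with q under 1e-05, 12.8% with at least 1000 bp, 13.2% within 100 kb and 3.35% without the first and last peaks. The spread over chromosomes is wide, so differences smaller than it could change sign. Without these 5 chromosomes the median fold enrichment near the ends exceeded the rest by 0.04 in place of 0.17, and the median length was 1 bp below it. With q under 1e-05 the difference in length was −85.5 bp. The start side, with a difference from the end side of −0.08 in median fold enrichment, was higher by 0.26 with q under 1e-05 and by 0.05 within 100 kb. Gaps of up to 5 or 20 kb in the chains, added after seeing the data, gave over all 38 ends a median extent of 12142 or 16836 bp, against 12142 bp with 10 kb, and a median fold enrichment of 3.91 or 3.61, against 3.77. The single library, the unknown depth per peak and the unknown distance from the last peaks to the chromosome ends limit all values.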

Other observations

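End-side coverage in the step from 225 to 250 kb was 14.8% (SD 17.9, n = 20 chromosomes), with peaks on 14 of 20 chromosomes, against 10.5% and 11 chromosomes in the step before. Without chromosomes 8, 13, 15, 19 and 20 it was 11.2%, against 0.77% to 6.15% in the 7 steps from 50 to 225 kb. Its 41 peaks were short, with a median of 952 bp, and had a median fold enrichment of 2.04. In the next step, from 250 to 275 kb, coverage was 9.35%, and 4.64% without these 5 chromosomes. Steps farther in reached a like level, with 12.2% from 400 to 425 kb and 13.2% from 475 to 500 kb. On the start side the step from 225 to 250 kb was covered to 6.17%, with peaks on 7 chromosomes.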
